A study of Homo sapiens with 4 samples.

Results

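Transcripts of ZC3HAV1 and of 8 genes that sense foreign nucleic acid or relay that signal were followed in single irradiated and untreated U-2 OS cells. The set was chosen by gene symbol: the sensors DDX58, IFIH1, DHX58, TLR3 and IFI16, the adaptor MAVS, the transcription factor IRF3, the kinase EIF2AK2 and the antiviral RNA-binding protein ZC3HAV1. All 9 were listed among the 36601 genes of each of the 4 libraries. U-2 OS cells are a long-established line from a human osteosarcoma in which p53 is wild type, and both groups were of the same line without further modification named in the labels. One group was exposed to ionizing radiation (IR) at 4 Gy while the other received none (UT, untreated); both groups were prepared in 2 separate experiments, with 1 library per group in each. The series design and the methods of the study place IR 48 h before sorting, whereas the treatment protocol in the labels gives 24 h. Single cells were sorted into wells and read by SORT-seq, which counts the 3′ ends of polyadenylated RNA with unique molecular identifiers (UMIs).

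Cells recognize viral nucleic acid through receptors that sit in different compartments. In the cytosol, RIG-I (encoded by DDX58) binds short double-stranded RNA with a triphosphate end, MDA5 (IFIH1) binds long double-stranded RNA, and LGP2 (DHX58) lacks the signalling domain of the others and modulates them; RIG-I and MDA5 both signal through the mitochondrial adaptor MAVS to IRF3, which switches on interferon and genes such as IFIT1. TLR3 reads double-stranded RNA in endosomes, IFI16 binds DNA, EIF2AK2 (PKR) halts translation when it binds double-stranded RNA, and ZC3HAV1 (ZAP) binds CpG-rich RNA and directs its decay. Several of these genes are themselves interferon-stimulated, so that a cell that has responded can carry more of its own sensors. IFIT1, which encodes an antiviral protein that binds foreign RNA, served here as the marker of such cells.

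The libraries held 247 to 367 cells and 5736339 to 6810079 gene counts, and 161 of the cell barcodes, which name well positions, occurred in all 4 libraries. The irradiation label was checked with CDKN1A, the p53 target that encodes p21, which lay at 324 and 277 CPM (counts scaled to a common library total) in UT and 959 and 914 CPM in IR. All 7 mesenchymal and osteoblast markers had counts in every library, with a summed level of 4774 to 5312 CPM, although COL1A2 stayed at or below 2.64 CPM. The summed level of 5 immune markers was 0.682 CPM in UT and 1.22 CPM in IR of experiment 1 but 10.9 CPM and 12.0 CPM in experiment 2. Immune transcripts thus differed more between the experiments than between IR and UT. The sums of experiment 1 rest on 4 counts in UT and 7 in IR, and a difference with IR was not tested.

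Promoter sequence is shown because several of these genes are known as interferon-stimulated genes, whose promoters often hold the element that interferon-activated factors bind. RefSeq promoters (GRCh38.p14, 250 bases before to 50 after a start site) were found for 7 of the 9 members and for IFIT1; DHX58 and IRF3 were not in the table. They were searched for GAAANNGAAA on both strands (TTTCNNTTTC on the opposite one) for the core of that element. Of all 35116 promoters 1255 held it, or 3.57%. In the stretches below, written along the coding strand, capitals mark the matches and 20 bases are given on each side.
IFIT1, chr10:89392487-89392549, plus strand: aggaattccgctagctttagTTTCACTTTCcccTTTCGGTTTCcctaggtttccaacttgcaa
IFIH1, chr2:162318676-162318863, minus strand: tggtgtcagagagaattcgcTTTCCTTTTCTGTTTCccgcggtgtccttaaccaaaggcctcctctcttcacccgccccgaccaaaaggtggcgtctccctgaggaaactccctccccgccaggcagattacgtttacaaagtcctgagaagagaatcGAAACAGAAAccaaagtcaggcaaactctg
TLR3, chr4:186069132-186069181, plus strand: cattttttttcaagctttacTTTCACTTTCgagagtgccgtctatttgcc
EIF2AK2, chr2:37156957-37157006, minus strand: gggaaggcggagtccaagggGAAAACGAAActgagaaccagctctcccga

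IFIT1 held 2 matches that began 116 and 103 bases before the start site. IFIH1 held 3 matches, of which the first and the second overlap, beginning 159 bases before the start for the first and 21 for the last. The single matches in TLR3 and EIF2AK2 began 4 and 6 bases before it. No match lay in the windows of ZC3HAV1, DDX58 (named RIGI in RefSeq), MAVS and IFI16, for which 2 windows were listed. A match or its absence describes these windows only. The window of ZC3HAV1 (chr7:139109671-139109970) lies inside the gene as GENCODE 44 draws it (chr7:139043515-139132122, minus strand). So do both windows of IFI16 and the window of EIF2AK2, which held a match. The window of TLR3 (chr4:186068906-186069205), which also held a match, begins only just before the gene, drawn from 186068911. For all of these genes start sites further upstream were not searched.

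To ask how irradiation changed the amount of each transcript, counts were summed per library. DDX58, IFIH1, TLR3 and IFI16 showed the larger differences, between 1.60-fold and 3.38-fold higher in IR, whereas MAVS, IRF3 and EIF2AK2 lay within 1.19-fold of UT. In CPM both IR libraries exceeded both UT libraries for 8 of the 9 members, IRF3 being the exception; the same was true of 30.7% of the 14647 genes tested. Of the 8 members that passed the filter on low counts, 0 passed an adjusted p of 0.05 in edgeR's quasi-likelihood test, against 2.48% of all genes tested. Unadjusted p was under 0.05 for 4 of the 8 (DDX58, IFIH1, TLR3 and IFI16), DESeq2 called 1 of them, DDX58 (3.76% of all genes), and 4 were called when low counts were not filtered (5.81%). The experiments differed from each other across many genes, and with the experiment as a replicate block, which left 1 residual degree of freedom, 5 members were called higher; 14.3% of all genes were called higher in that fit.

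**Figure D1:**
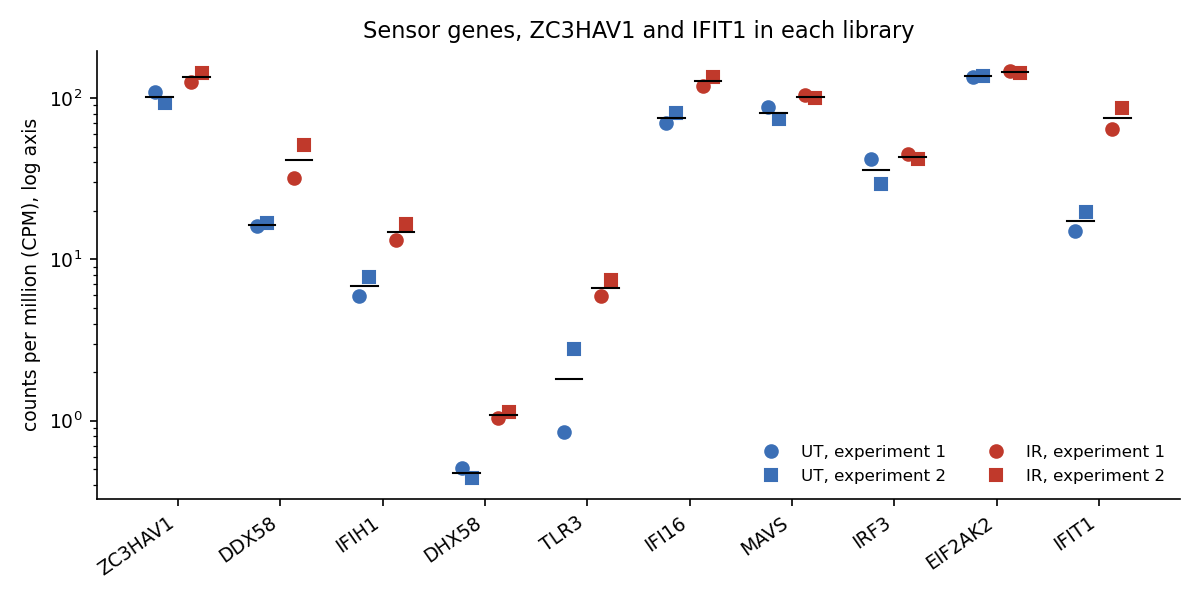
Level of each member and of IFIT1 in each library, in CPM on a log axis; circles are experiment 1, squares experiment 2, blue UT, red IR, and black lines the means of 2 libraries. Red points lie above both blue points for every member except IRF3, with wide gaps for DDX58, IFIH1, TLR3 and IFI16 and narrow gaps for MAVS and EIF2AK2.

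Among the cytosolic RNA sensors, DDX58 (GENCODE 44 on GRCh38, chr9:32455302-32526208, minus strand) was measured at 16 and 16.7 CPM in UT and at 32.1 and 50.8 CPM in IR. The groups did not overlap, and the IR libraries were further apart than the UT libraries. The log2 difference was 1.26 ± 0.25 (SE; edgeR adjusted p = 0.0523), which passed with DESeq2 (adjusted p = 0.00939), without IR experiment 1 (0.0359) and with the block (1.02e-09).

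IFIH1 (chr2:162267074-162318684, minus strand) was measured at 5.96 and 7.78 CPM in UT and at 13.2 and 16.5 CPM in IR. It was about as much higher in either experiment, by 2.22-fold and 2.12-fold. The log2 difference of 1.03 ± 0.26 (SE) did not pass in edgeR (adjusted p = 0.0927) and did with the block (adjusted p = 1.95e-04).

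DHX58 (chr17:42101404-42112714, minus strand) was barely detected, with 3 counts in each UT library and 6 and 7 in the IR libraries, and fell below the filter. Summed over libraries, its share of counts was 2.30 times higher in IR, with an exact 95% interval of 0.817 to 7.39 that covers counting error only. A difference was thus not detectable at this depth.

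TLR3 (chr4:186068911-186088073, plus strand), the endosomal receptor, was measured at 0.852 and 2.79 CPM in UT and at 5.93 and 7.44 CPM in IR. All 4 values are low, and the first, resting on 5 counts, lay below the filter on low counts. TLR3 passed that filter through the IR libraries, where it was higher. The T cell gene CD3E, which these cells should lack, lay at 4.11 and 3.56 CPM in UT and IR of experiment 2 and at 0 in experiment 1. The log2 difference was 1.76 ± 0.50 (SE; edgeR adjusted p = 0.12); it was called with the block (4.85e-05) and without UT experiment 2 (2.85; adjusted p = 0.0392).

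IFI16 (chr1:158999968-159055155, plus strand), the DNA sensor of the set, was measured at 70.2 and 80.5 CPM in UT and at 119 and 135 CPM in IR. The ratio of IR to UT was 1.70 in experiment 1 and 1.68 in experiment 2, so that the experiments differed little. The log2 difference was 0.68 ± 0.16 (SE; edgeR adjusted p = 0.0761; 1.89e-07 with the block).

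The signalling genes differed less between the groups. MAVS (chr20:3846799-3876123, plus strand) was measured at 88.3 and 74.0 CPM in UT and 104 and 99.9 CPM in IR, a log2 difference of 0.25 ± 0.16 (SE; edgeR adjusted p = 0.487). For IRF3 (chr19:49659569-49665875, minus strand) the values were 42.1 and 29.2 CPM in UT and 45 and 41.7 CPM in IR, so that the groups overlapped (log2 difference 0.20 ± 0.22; edgeR adjusted p = 0.696). EIF2AK2 (chr2:37099210-37157522, minus strand) was measured at 134 and 138 CPM in UT and 147 and 143 CPM in IR, and its scaled log2 difference was 0.01 ± 0.14 (edgeR adjusted p = 0.979). Its CPM was 1.09-fold and 1.04-fold higher in IR, and the scaling between libraries (TMM), which lowered log2 ratios by a median of 0.089 and 0.083 in the 2 experiments, brought the second to -0.029 on the log2 scale.

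ZC3HAV1 was measured at 109 and 92.5 CPM in UT and at 126 and 144 CPM in IR. The groups did not overlap, but the ratio was 1.16 in experiment 1 and 1.55 in experiment 2. The log2 difference of 0.34 ± 0.16 (SE) did not pass (edgeR adjusted p = 0.330) and did with the block (adjusted p = 0.00811). Because IR cells held more counts each, the mean per cell before any correction for depth was 1.78 and 1.72 UMIs in UT and 2.93 and 3.58 UMIs in IR.

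Other genes of the pathways around the members were read in the same comparison. Of all genes tested 2.48% were called, and with the block 14.3% were called higher and 12.9% lower. No set test was run. Among the tested genes of the RIG-I-like receptor list (receptors, adaptor, kinases and ubiquitin ligases) 0 of 14 were called, with a median log2 difference of 0.33 against -0.0033 over all genes. TRIM25, a ubiquitin ligase that serves both RIG-I and ZAP, lay at 46.9 and 43.9 CPM in UT and 71.7 and 75.5 CPM in IR (log2 difference 0.62; edgeR adjusted p = 0.0945). With the block DDX58, IFIH1, TRIM25 and TRAF6 were called, all 4 higher. Of the list around ZC3HAV1 (cofactors and antiviral PARP genes) 0 of 16 were called and 5 higher with the block, namely TRIM25, ZC3HAV1 itself, PARP10 (0.90), TIPARP (0.78) and PARP9 (0.34 on the log2 scale), the median over the list being 0.11.

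The list of DNA sensors had a median of -0.29 over 10 tested genes, 0 called, and 2 higher and 5 lower with the block, in which 12.9% of all genes were called lower. TMEM173, which encodes the adaptor STING, lay at 10.1 and 8.52 CPM in UT and 19.4 and 28.6 CPM in IR (log2 difference 1.29; edgeR adjusted p = 0.0568). HMGB1, an abundant chromatin protein that also binds DNA in the cytosol, lay at 951 and 1129 CPM in UT and 576 and 634 CPM in IR (log2 difference -0.86; edgeR adjusted p = 0.0508). MRE11, PRKDC, XRCC5 and XRCC6, better known for the repair of DNA breaks, had log2 differences of -0.73, -0.56, -0.54 and -0.47, and with HMGB1 they made up the 5 that were lower with the block. IFI16 and TMEM173 were the members of this list called higher with the block.

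Around EIF2AK2, 0 of 13 tested genes of the eIF2α kinase list were called (median -0.0055), and 3 were higher and 2 lower with the block. For this and the next 2 lists, the shares over all genes were 2.48% called, and 14.3% higher and 12.9% lower with the block. PPP1R15A, which directs dephosphorylation of eIF2α, lay at 39.5 and 38.2 CPM in UT and 94.1 and 64.7 CPM in IR (log2 difference 0.95; edgeR adjusted p = 0.0746). Around TLR3, 0 of 9 tested genes were called and 3 with the block, TLR3 itself and the adaptors TICAM1 (0.67) and TRAF6 (0.39). Among other binders of double-stranded RNA 1 of 14 was called, OASL, a relative of the 2′-5′ oligoadenylate synthetases that has no synthetase activity (log2 difference 2.76 ± 0.28; edgeR adjusted p = 0.0155), while the list's median was -0.037 and 4 were higher and 4 lower with the block.

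The ends of the pathway were unlike each other. The 7 interferon ligands listed held 2, 5, 3 and 2 counts in UT experiments 1 and 2 and IR experiments 1 and 2, of which 10 of 12 were IFNE and 0 were IFNB1, and 0 of the 11 tested ligand, receptor and ISGF3 genes were called (median 0.09; 1 higher with the block, STAT2 at 0.49). Among antiviral effectors 6 of 17 tested genes rose and 0 fell, with a median of 0.87, against 1.63% of all genes called higher. With the block 11 were higher, against 14.3% of all genes. IFIT1, the gene used as the marker below, lay at 15 and 19.7 CPM in UT and 63.8 and 86.6 CPM in IR (log2 difference 2.03 ± 0.23; edgeR adjusted p = 0.0176).

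To ask how unevenly the transcripts were spread over cells, each cell was thinned to 8000 UMIs, which left 333 and 356 UT and 231 and 232 IR cells in experiments 1 and 2. The Fano factor, the variance over the mean, is near 1 where cells differ by counting alone. For ZC3HAV1 it reached 1.51 and 1.66 in the UT libraries and 2.54 and 3.35 in the IR libraries, so that the groups did not overlap. For IFIH1 the UT libraries gave 0.976 and 1.04 and the IR libraries 2.69 and 2.5, and for DDX58 they gave 1.33 and 1.09 against 1.57 and 1.96. Before thinning, where cells differ in depth, IFIH1 gave 2.80 and 1.16 in UT and 5.58 and 4.67 in IR. Its highest cell in UT experiment 1 then held 8 UMIs. The other tested members lay between 0.932 and 1.61 in every library. EIF2AK2, at a mean per cell close to that of ZC3HAV1, had factors of 1.30 and 1.11 in UT and 1.15 and 1.30 in IR.

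**Figure D2:**
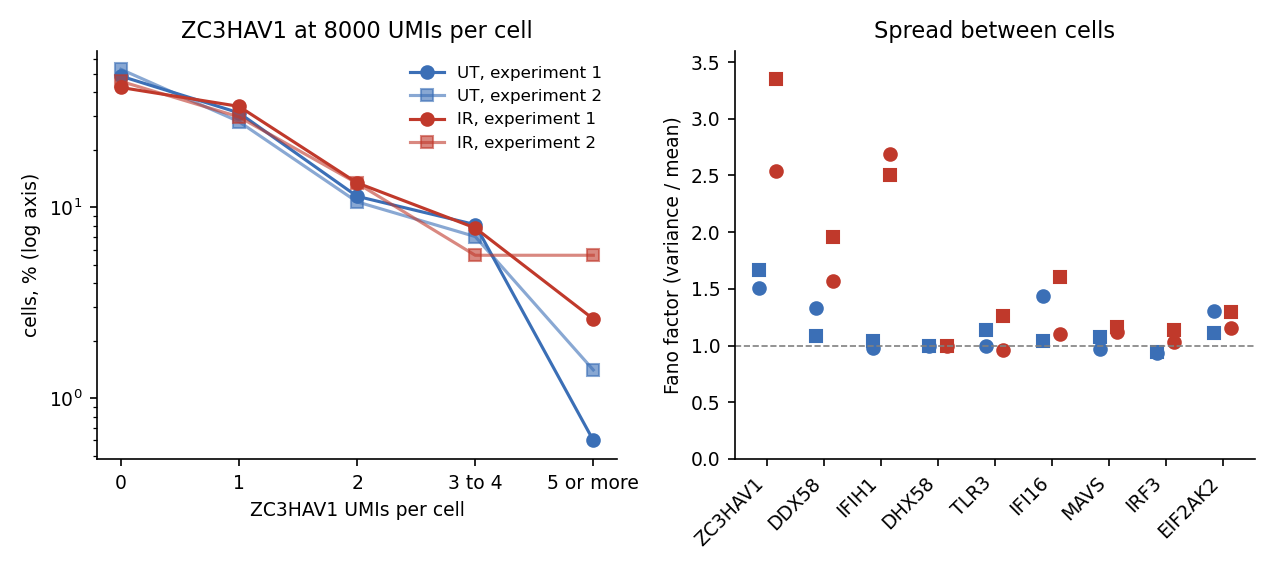
Left, share of cells (log axis, %) by number of ZC3HAV1 UMIs at 8000 UMIs per cell, with circles for experiment 1 and squares for experiment 2, UT in blue and IR in red; right, the Fano factor of each member in each library, with a dashed line at 1. The curves run close together up to 4 UMIs and part at 5 or more, and ZC3HAV1, IFIH1 and DDX58, and by smaller margins MAVS and IRF3, have higher factors in both IR libraries than in both UT libraries.

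Counts per cell show where the libraries parted. ZC3HAV1 was detected in 51.4% and 47.2% of UT cells and in 57.6% and 54.3% of IR cells, shares whose 95% exact binomial intervals overlap (45.8% to 56.8% for UT experiment 1 and 50.9% to 64.0% for IR experiment 1). Cells with 5 or more ZC3HAV1 UMIs numbered 2 and 5 in UT and 6 and 13 in IR, or 0.601%, 1.40%, 2.60% and 5.60% of cells. The highest cell held 10, 9, 15 and 13 UMIs. The 10% of cells with most ZC3HAV1 held 38.8% and 42.7% of its UMIs in UT and 42.8% and 50% in IR, so that by this measure IR experiment 1 was level with UT experiment 2. These intervals cover counting error only.

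A residual of log2 SD on a linear fit to log2 mean was then compared between groups across 11462 genes with limma; the study takes such a residual from normalized values, whereas thinned UMIs were used here. The residual of ZC3HAV1 came to 0.17 and 0.25 for UT against 0.49 and 0.66 for IR, between the 94.1 and the 99.2 percentile of all genes. The difference of 0.37 ± 0.13 (SE) did not pass (limma adjusted p = 0.823; 0.498 with the block). It came to 0.59 with thinning to 5000 UMIs (adjusted p = 0.436), 0.70 without thinning (0.470) and 0.20 on log1p of values scaled per cell (0.207). IFIH1 had a mean of 0.027 and 0.059 UMIs per thinned cell in UT and 0.147 and 0.190 in IR. It thus passed the minimum of 0.05 UMI, taken over the 4 libraries, largely through IR, and fell below a minimum of 0.2. In UT experiment 1 it was seen in 9 cells, with 1 UMI each. Of 7 members tested IFIH1 alone was called, with a residual higher by 0.60 ± 0.12 (limma adjusted p = 0.0484), against 0.0785% of all genes. That call was lost with thinning to 5000 UMIs (adjusted p = 0.700), without thinning (0.569) and without either UT library (1.00), while the estimate stayed between 0.55 and 0.64 in these fits. On log1p of scaled values IFIH1 (0.52; adjusted p = 9.13e-06) and DDX58 (0.27; 0.0173) were called, with 1.57% of all genes.

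The relation of the members to IFIT1 was read cell by cell. At 8000 UMIs IFIT1 was detected in 29 and 44 UT cells and 34 and 45 IR cells, and cells with 5 or more IFIT1 UMIs numbered 1 and 1 in UT and 7 and 10 in IR. In IR cells with 5 or more IFIT1 UMIs, ZC3HAV1 averaged 5.29 and 5.90 UMIs in experiments 1 and 2, against 0.878 and 0.925 in cells with none. The SD over those few cells was 5.71 (n = 7) and 3.07 (n = 10). The only 2 UT cells with as much IFIT1 held 10 and 6 ZC3HAV1 UMIs. Cells with 1 IFIT1 UMI averaged 1.44 and 0.773 ZC3HAV1 UMIs in IR, and 0.583 and 0.514 in UT, where cells with none averaged 0.822 and 0.824. The classes of 2 to 4 and of 5 or more IFIT1 UMIs were chosen after the values were seen.

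**Figure D3:**
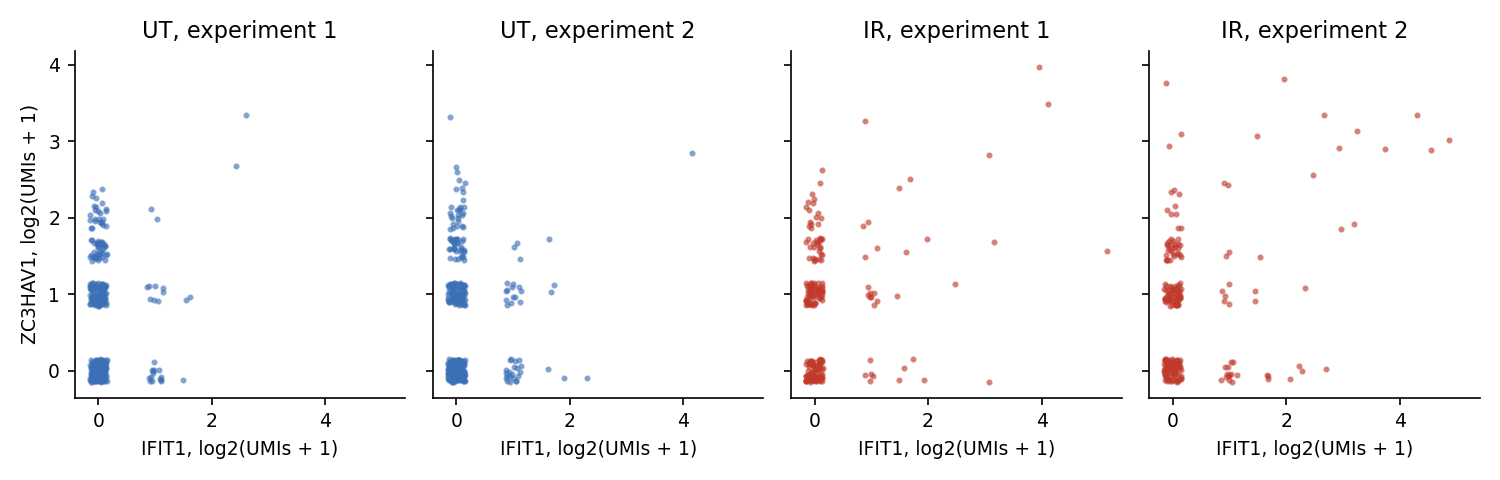
Each point is 1 cell at 8000 UMIs, placed by log2(UMIs + 1) of IFIT1 (horizontal) and ZC3HAV1 (vertical) with a small random offset so that points do not cover each other; the 4 panels are the libraries. The upper right, with both genes high, holds single cells in UT and a scatter of cells in IR, and cells high in ZC3HAV1 without IFIT1 stand at the left edge.

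The relation was not complete in either direction. Of the cells with 5 or more ZC3HAV1 UMIs, 2 of 2 and 1 of 5 in UT and 4 of 6 and 10 of 13 in IR had at least 2 IFIT1 UMIs. In cells without IFIT1 the highest ZC3HAV1 value was 4 and 9 UMIs in UT and 5 and 13 in IR. Conversely, 5 of 16 and 7 of 23 IR cells with at least 2 IFIT1 UMIs had no ZC3HAV1 UMI, and the IR cell of experiment 1 with most IFIT1 (34 UMIs) had 2. Leaving out cells with at least 2 IFIT1 UMIs lowered the Fano factor of ZC3HAV1 in IR from 2.54 to 1.40 and from 3.35 to 2.12, and in UT from 1.51 to 1.21 and from 1.66 to 1.61.

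DDX58 and IFIH1 were detected in a larger share of the IR cells with much IFIT1, but not only there. Of IR cells with a DDX58 UMI, 33 of 47 and 32 of 53 had no IFIT1 UMI in experiments 1 and 2. For IFIH1 these were 12 of 20 and 14 of 30. DDX58 was detected in 7 of 7 and 9 of 10 IR cells with 5 or more IFIT1 UMIs and in 16.8% and 17.1% of IR cells with none, against 8.88% and 12.8% of UT cells with none. IFIH1 was detected in 5 of 7 and 9 of 10 of the former and in 6.09% and 7.49% of the latter. DDX58 and IFIH1 were detected together in 7 of 16 and 12 of 23 IR cells with at least 2 IFIT1 UMIs, and in 0 of 197 and 4 of 187 with none; the count of 0 allows a share of up to 1.52% (3 counts, counting error only). The cells with at least 2 IFIT1 UMIs, 6.93% and 9.91% of IR cells, held 61.8% and 56.8% of the IFIH1 UMIs of their libraries, 27.9% and 51.9% of those of DDX58 and 20.4% and 32.1% of those of ZC3HAV1.

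**Figure D4:**
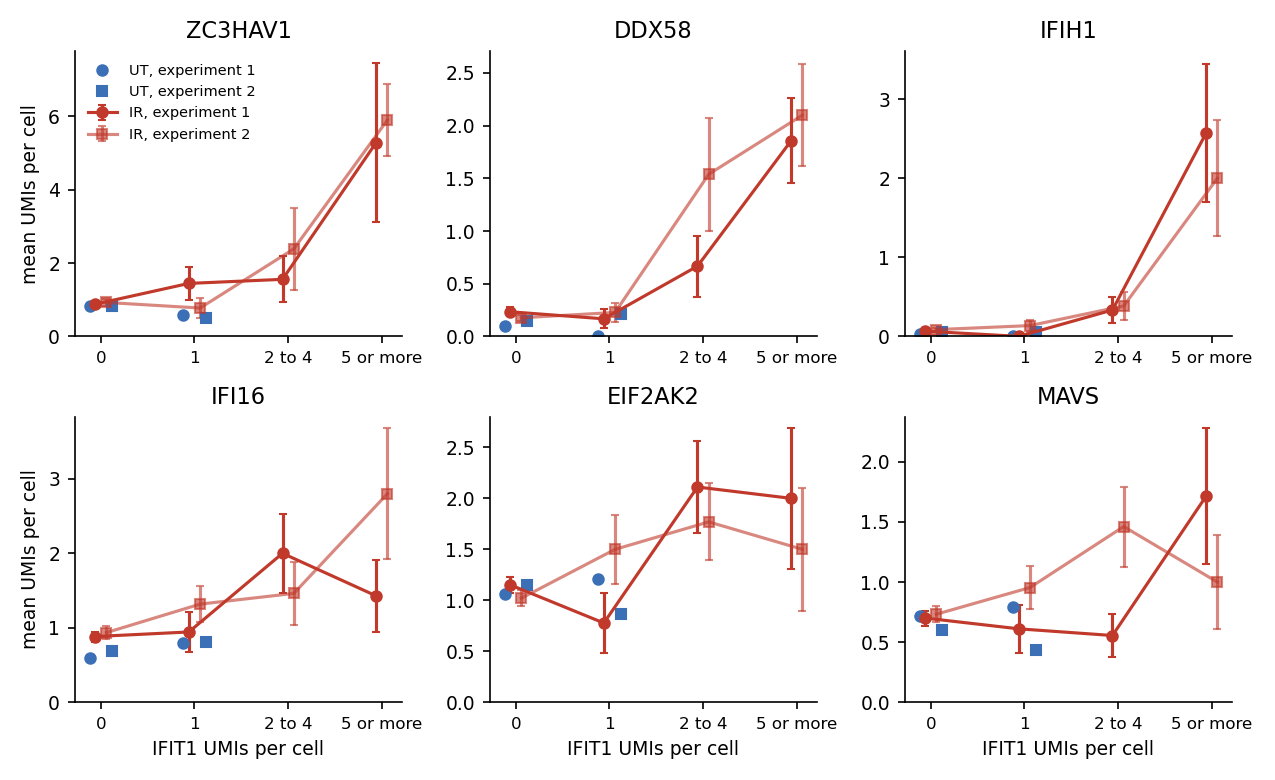
Mean UMIs per cell (8000 UMIs each) of 6 members by the number of IFIT1 UMIs in the cell; red lines are the IR libraries with the standard error over cells, and blue points the UT libraries for 0 and 1 IFIT1 UMI, the later classes holding too few UT cells. The bars cover cells of the same library and are not the error between libraries. ZC3HAV1, DDX58 and IFIH1 climb in the last class of both IR libraries, whereas MAVS does so in experiment 1 and EIF2AK2 in neither.

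The remaining members were read in the same classes. IFI16 averaged 0.883 and 0.936 UMIs in IR cells without IFIT1 and 1.43 and 2.80 in those with 5 or more IFIT1 UMIs. EIF2AK2 averaged 1.15 and 1.02 against 2.0 and 1.5, MAVS 0.701 and 0.733 against 1.71 and 1.00, and IRF3 0.345 and 0.342 against 1.43 and 0.50. Of DHX58 there were 4 UMIs in all IR cells at this depth, and 3 of them lay in cells with 5 or more IFIT1 UMIs. TLR3 had 11 and 13 UMIs in IR, of which 0 and 2 lay in such cells.

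A test over libraries compared cells with at least 1 IFIT1 UMI and cells with none, summed within each of the 4 libraries. In edgeR 2 of 6 members tested rose, against 0.293% of all genes: DDX58 by a log2 difference of 1.60 ± 0.26 (SE; adjusted p = 6.98e-05) and IFI16 by 0.59 ± 0.15 (adjusted p = 0.0409). ZC3HAV1, at 0.83 ± 0.29, did not pass (adjusted p = 0.691), and IFIH1 did not reach the filter. Without the library block both calls were lost at estimates of 1.58 and 0.58 (edgeR adjusted p = 0.0697 and 0.746). When the IFIT1 class required 2 UMIs, ZC3HAV1 was called at 1.78 (edgeR adjusted p = 2.62e-18; 0.631% of all genes called higher), and leaving out UT experiment 1, UT experiment 2 or IR experiment 1 also called it, at 0.94, 1.12 and 0.64 on the log2 scale. DDX58 lost its call without IR experiment 2 (1.05; adjusted p = 0.326), and IFI16 without UT experiment 1 (adjusted p = 0.060), IR experiment 1 (0.0680) or IR experiment 2 (0.855), while its estimate stayed between 0.44 and 0.71 without any 1 library.

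Whether the difference between the IFIT1 classes itself differed between IR and UT was tested as an interaction. ZC3HAV1 passed, with a log2 difference larger by 1.37 ± 0.26 (SE) in IR (edgeR adjusted p = 0.00245), the only call among 6 members against 0.157% of all genes called in that direction. In UT the difference was 0.0037 ± 0.21 and in IR 1.37 ± 0.17 when each group was fitted alone, with 1 residual degree of freedom each. The call was lost when the class required 2 IFIT1 UMIs (0.73; adjusted p = 0.877), with thinning to 5000 UMIs (1.14; 0.799), without thinning (0.66; 0.0508, where IFIH1 was called at 2.02, with 0.108% of all genes called higher) and without UT experiment 2 (1.02; 0.357). In UT most cells of the IFIT1 class had 1 UMI, 24 of 29 and 37 of 44, against 18 of 34 and 22 of 45 in IR, so that the classes did not hold the same cells in both groups.

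**Figure D5:**
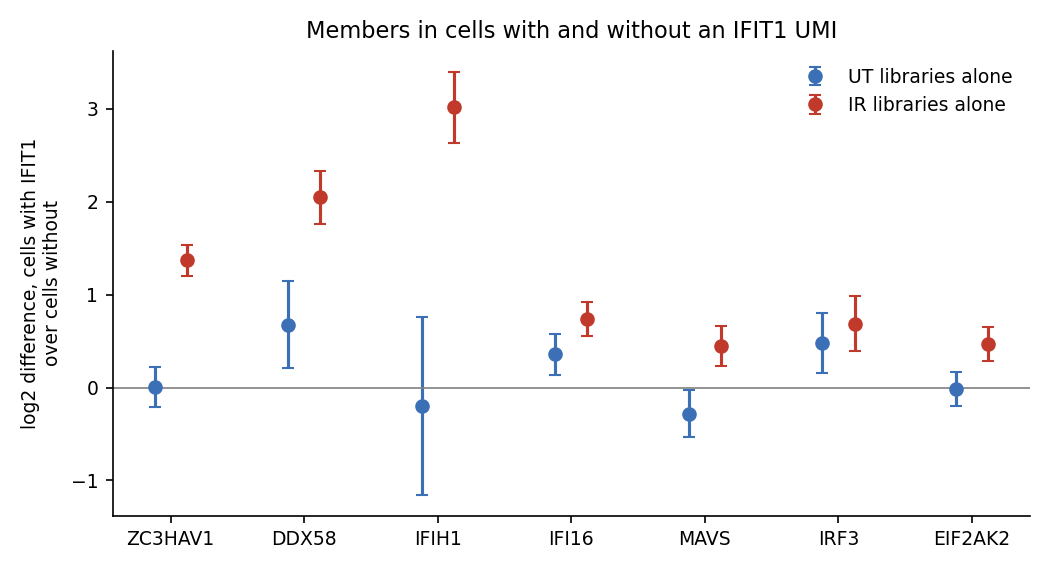
Log2 difference between cells with and without an IFIT1 UMI for 7 members, fitted in the UT libraries alone (blue) and in the IR libraries alone (red), with standard errors. The red points of ZC3HAV1 (1.37), DDX58 (2.05), IFIH1 (3.02) and IFI16 (0.74) were called, and no blue point was. In IR, IFIH1 reached the filter on low counts only through the cells with IFIT1.

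In the IR libraries alone 4 of 8 members tested were called higher (0.587% of all genes): ZC3HAV1, DDX58, IFIH1 by 3.02 ± 0.38 (SE; edgeR adjusted p = 2.21e-12) and IFI16. IFIH1 had 13 and 16 UMIs in IR cells without IFIT1 and 21 and 28 in the fewer cells with it. IFIH1 and TLR3 reached the filter on low counts only through the cells with IFIT1, so the IFIH1 call leans on that class. The fits of IR and UT libraries alone were added after the values were seen. In the UT libraries alone 0 of 7 were called by edgeR (0.301% of all genes were called higher), and unadjusted p was under 0.05 for 0 of them. Differences between UT and IR other than that of ZC3HAV1 did not pass the interaction test, with DDX58 at 1.38 ± 0.51 (adjusted p = 0.517).

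Irradiation was then compared within cells in which IFIT1 was not detected. There ZC3HAV1 differed by 0.07 ± 0.17 on the log2 scale (SE; edgeR adjusted p = 0.908), against 0.42 over all thinned cells. DDX58 differed by 0.69 ± 0.30 (0.342), IFIH1 by 0.72 ± 0.45 (0.515) and IFI16 by 0.43 ± 0.18 (0.330), against 1.23, 1.89 and 0.55 over all thinned cells; whether the 2 sets of cells differed was not tested. Of 7 members tested 0 were called by edgeR (0.869% of all genes), 2 had an unadjusted p under 0.05, and IFI16 was called with the block (adjusted p = 0.0193; 8.83% of all genes called higher). The difference for IFIH1 turned to -0.13 without thinning. Its 1.89 over all thinned cells rests on 9 UMIs in UT experiment 1, and the counts before thinning gave 1.03. MAVS, IRF3 and EIF2AK2 differed by 0.06, 0.23 and -0.09. For ZC3HAV1, IR cells with IFIT1 averaged 2.26 and 2.38 UMIs, against 0.878 and 0.925 in IR cells without it. Leaving out cells with IFIT1 thus had to lower its IR level, and the contrast of 0.07 with 0.42 restates the IFIT1 split.

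Depth, wells and other cell types were read beside these results. Before thinning, IR cells without IFIT1 had medians of 21345 and 23148 UMIs and those with 5 or more IFIT1 UMIs 20784 and 26098. Of the 19 cells with 5 or more IFIT1 UMIs, 0 shared a barcode with such a cell of another library. UT cells whose barcode carried such a cell in another library had an IFIT1 UMI in 2 of 14 and 6 of 18 cases, against 8.46% and 11.2% of other UT cells, and IR cells in 1 of 9 and 0 of 3 cases, against 14.9% and 19.7% of other IR cells; the part of this in the results was not tested. UMIs of the 5 immune markers occurred in 0 of 7 and 2 of 10 IR cells with 5 or more IFIT1 UMIs and in 1.02% and 9.63% of IR cells with none; their part in the results was not tested.

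Across cells of a library, the correlation of log UMIs between ZC3HAV1 and IFIT1 amounted to 0.086 and 0.021 in UT (n = 333 and 356 cells) and 0.31 and 0.38 in IR (n = 231 and 232). DDX58 with IFIT1 gave 0.043 and 0.16 in UT and 0.38 and 0.55 in IR, and IFIH1 with IFIT1 gave -0.049 and 0.088 in UT and 0.61 and 0.57 in IR. These are descriptions over cells that share a library and hold few UMIs of each gene. Over 9625 genes the 5 most alike to ZC3HAV1 by the mean of the 4 correlations were IFIT3 (0.28), IFIT2 (0.27), DDX60 (0.27), OASL (0.25) and IFI44 (0.23), all of them interferon-stimulated genes. IFIT1 ranked 6, IFIH1 8, DDX58 12 and IFI16 102, whereas IRF3, EIF2AK2 and MAVS ranked 845, 1128 and 1202. The ranking took genes with a mean of at least 0.1 UMI per thinned cell, which IFIH1 reached only through its IR libraries. Its correlation with ZC3HAV1 came to 0.27 and 0.28 there, against 0.062 and 0.050 for the UT libraries. The rank of IFIH1 thus leans on the IR libraries. CDKN1A averaged 7.32 and 7.15 UMIs in IR cells with 0 ZC3HAV1 UMIs, 8.28 and 7.57 in those with 1 to 4, and 4.5 and 9.46 in the 6 and 13 cells with 5 or more. In UT it averaged 2.07 and 2.07, 2.64 and 2.23, and 7.5 and 4.8 in the same classes, the last holding 2 and 5 cells. In cells with 5 or more ZC3HAV1 UMIs it was thus above cells with none in 3 of the 4 libraries and below them in IR experiment 1.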

How the data were processed

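SORT-seq libraries of U-2 OS cells (2 UT, 2 IR) were analysed. The authors mapped reads to GRCh38 with STARsolo, leaving out intronic and multi-gene reads, and deposited expected counts: at least 99.9% of values lie on the correction of k UMIs for 4096 possible sequences. The design had assumed plain counts; sums per library were rounded for testing and k was recovered for thinning to 8000 UMIs, which dropped shallower cells. Groups came from sample titles. All 1220 deposited barcodes were used, ERCC spike-ins (0.191% to 1.21%) were left out, and no doublet caller was run. Tests were edgeR 4.0.16 (TMM, filterByExpr, robust quasi-likelihood), limma 3.58.1 and, as an alternative, DESeq2 1.42.0 in R 4.3.3, two-sided with Benjamini-Hochberg adjustment over all genes tested; scripts were tested on simulated data. CPM use gene counts as the library total, without TMM. The titles mark a shared experiment, so its number pairs libraries: deviations from group means correlated at 0.635 over 14647 genes. Libraries are the replicates. The p-values rest on the spread between these 4 libraries, moderated across genes by the models. Small p-values in fits with few residual degrees of freedom, such as the block, thus rest largely on other genes. Members, lists and tests were chosen with earlier results of these data known. Genes were named by rule (the members, IFIT1, up to 4 further genes per list by p, the 5 most correlated with ZC3HAV1, and CDKN1A); XRCC5, XRCC6, FGF2, IFNE, IFNB1, CD3E and COL1A2 were named outside it, after their values were seen.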

Additional observations from a re-analysis of the deposited data

Results flagged for a closer look

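The interaction of IFIT1 class with irradiation for ZC3HAV1 stands out. The difference between cells with and without IFIT1 differed between IR and UT by 1.37 on the log2 scale (edgeR adjusted p = 0.00245). The interaction fell short of the threshold in 4 of the alternative settings named above. Most UT cells with IFIT1 had 1 UMI of it, unlike those of IR. UT cells with at least 2 IFIT1 UMIs averaged 3.4 (n = 5) and 1.43 (n = 7) ZC3HAV1 UMIs, against 0.822 and 0.824 with none.

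EIF2AK2 differed between IR and UT in opposite directions in the 2 experiments after TMM scaling, by 0.039 in experiment 1 and by -0.029 in experiment 2 (log2 CPM), with 1 library per group in each. The difference between experiments was not tested, and without TMM scaling both values were above 0.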

How the results depend on the processing

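Counts of called genes moved with the settings. For IR against UT (363 called) they were 1513 with no filter on low counts, 208 in thinned cells and 3977 with the replicate block, and 108 to 234 when 1 library was left out. For the spread (9) they were 0 after thinning to 5000 UMIs and 0 without thinning, where 888 genes had an unadjusted p under 0.05, 180 on the log1p scale, and 4 to 59 without 1 library. For IFIT1-positive against IFIT1-negative cells (37) they were 98 with at least 2 IFIT1 UMIs, 24 at 5000 UMIs, 109 without thinning, 63 with no filter, 7 without the replicate block, 78 in IR libraries alone (chosen after seeing the data), and 24 to 61 without 1 library. The interaction (21) gave 11 with at least 2 IFIT1 UMIs, 0 at 5000 UMIs and 12 to 23 without 1 library. In IFIT1-negative cells (106) they were 197 without thinning, 733 with no filter, 2021 with the replicate block and 149 to 358 without 1 library. Beyond the members named with it in the report, the block changed no call of a member. The causes were not tested.

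Signs turned mostly for values near 0. For IR against UT these were IRF3 and EIF2AK2 (leaving out 1 library gave -0.049 to 0.4995 and -0.020 to 0.038). In the spread they were IFI16 (0.0075 without thinning; -0.14 to 0.11 without 1 library), MAVS (-0.13 at 5000 UMIs, -0.13 without thinning, -0.12 on the log1p scale; -0.022 to 0.064) and EIF2AK2 (0.023 at 5000 UMIs, 0.012 without thinning; -0.10 to 0.0029). In the IFIT1 split they were MAVS (-0.074 without thinning, -0.28 in UT alone; -0.092 to 0.32) and EIF2AK2 (-0.017 in UT alone), in the interaction IRF3 (-0.16 with at least 2 IFIT1 UMIs; -0.32 to 0.98), and in IFIT1-negative cells IFIH1 (-0.13 without thinning), MAVS (-0.093 to 0.20), IRF3 (-0.036 to 0.54) and EIF2AK2 (-0.18 to 0.0065). With 2 libraries per group and 17 IR cells with 5 or more IFIT1 UMIs, depth limits DHX58 and TLR3 most.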

Other observations

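FGF2, which encodes a fibroblast growth factor and was singled out after its values were seen, ranked 7 among 9625 genes by its correlation with ZC3HAV1 across cells (0.28 and 0.32 in IR, 0.083 and 0.016 in UT) and 7 by that with IFIT1 (0.44 and 0.56 in IR, 0.22 and 0.14 in UT). It lay at 31.5 and 36.6 CPM in UT and 76.9 and 93.4 CPM in IR (log2 difference 1.24 ± 0.18; edgeR adjusted p = 0.0273), and its spread between cells was higher in IR by a residual of 0.89 ± 0.15 (limma adjusted p = 0.0350).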
